A study of Mus musculus with 30 samples.

Results

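Kidney organoids cultured for 8 days (8D organoids) were compared with the renal progenitors from which they are made, over every gene on the array. The comparison uses the 3 arrays titled as 8D organoids and the 3 titled as progenitors, 6 of the 30 arrays of the series, and all 23986 gene symbols of the table. All cells came from the mouse embryonic stem cell (ESC) line 1B10, maintained on feeder fibroblasts that had been treated with mitomycin C. The renal progenitors were monolayer cultures at the end of a stepwise differentiation through mesoderm and intermediate mesoderm, in a last medium with the growth factors Bmp7 and Fgf2. For the organoids such progenitors were dissociated, aggregated on a porous filter at an air-liquid interface in serum medium, given the ROCK inhibitor Y27632 overnight and a short exposure to CHIR99021 and Bmp7, and then kept in serum medium alone. CHIR99021 inhibits GSK3 and so switches on canonical Wnt signalling. No transgene, sort or genetic selection separated the groups, a single ESC line was used, and neither the labels nor the methods say whether replicates were separate differentiations, so that the p-values measure only the spread between these samples.

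The nephrons of the kidney arise from a nephron progenitor population marked by transcription factors such as Six2, Eya1 and Sall1, the collecting system arises from the ureteric bud with Ret and Gata3, and the stroma from Foxd1-positive cells. Wnt and Fgf signals keep nephron progenitors or push them to form an epithelium, with cadherins and tight junctions in place of a loose mesenchyme. Nanog, Tdgf1 and Lefty genes are expressed by pluripotent cells, but none of them by itself identifies cells of a culture that have not left that state. Dividing cells are recognized by the replication and mitosis genes, which are shared by nearly all proliferating cell types. In RNA from whole cultures, fewer cells of a type and less RNA of a gene in each cell cannot be told apart.

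The arrays of the groups did not lie equally close. The median SD per gene was 0.260 among the 3 progenitor arrays, the largest of the 10 groups, and 0.196 among the 8D organoids, against 0.146 to 0.219 in the other groups. Progenitor replicates 1 and 3 were farther apart (Euclidean distance over all genes 97.3) than any pair of 8D organoids (64.4 to 70.9). Distances between a progenitor and an organoid array ran from 85.9 to 122.2. Progenitor replicate 1 lay nearer to organoid replicate 2 (85.9) than to progenitor replicate 3, and it is the only array of the 6 that carries the label batch 1. The mean level of 26 pluripotency genes was 7.65, 6.77 and 5.64 on progenitor replicates 1, 2 and 3, so that the replicates differed most in genes that also set the groups apart. Values are log2 levels throughout, given in the order of replicates 1, 2 and 3, and differences are log2 differences of 8D organoids minus renal progenitors from a limma model of all 30 arrays with a term for batch. A gene is called higher or lower at an adjusted p under 0.05. This model pools the spread of 10 groups, embryonic and adult kidney tissue among them, and the progenitors spread more than the rest. The count from the 6 arrays alone, with their own spread, therefore stands beside most counts of 8D organoids against progenitors.

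In this model 2814 genes (11.7%) were higher in 8D organoids and 1844 (7.69%) were lower, out of 23986 tested. With the 6 arrays alone and no batch term, 458 (1.91%) were higher and 191 (0.796%) lower, and 648 genes were called in the same direction by both fits. Of 316 called genes that were singled out by rule or afterwards, the 6 arrays alone kept 104. All 3 organoid arrays lay above all 3 progenitor arrays in 3816 genes (15.9%) and below them in 2424 (10.1%), while 775 of the called genes had overlapping arrays. The median difference over all genes was -0.01, and 666 of the called genes were at least 2-fold higher and 671 at least 2-fold lower. Every share of a gene list below is to be read against these shares.

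**Figure D1:**
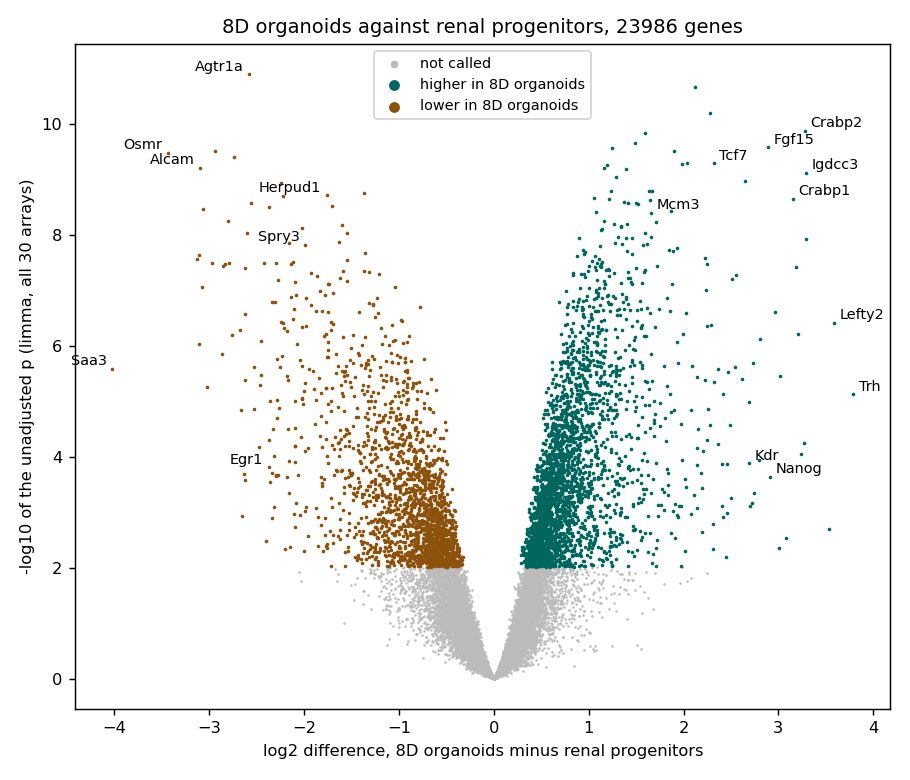
Each point is a gene, with the log2 difference of 8D organoids minus renal progenitors on the x axis and -log10 of the unadjusted limma p on the y axis. Called genes are coloured by direction, 2814 higher and 1844 lower. Saa3 and Osmr lie at the far left and Trh and Lefty2 at the far right.

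Trh and Lefty2 had the largest increases among genes whose groups did not overlap. Trh, the precursor of thyrotropin-releasing hormone, which mouse ESCs also express, read 8.12, 6.50 and 4.82 in progenitors and 10.79, 9.996 and 10.24 in 8D organoids. The progenitors were spread over more than 3 log2 units, yet all lay below the organoids, and the difference of 3.79 (SE 0.665, adjusted p = 0.000265) was the largest of all of these. Lefty2, an antagonist of Nodal, rose from 5.92, 5.12 and 5.18 to 9.52, 9.48 and 7.84, by 3.59 (SE 0.518, adjusted p = 3.63e-05). Its progenitor arrays lay close together and organoid replicate 3 was the lowest of the organoids. Igdcc3, an immunoglobulin superfamily gene of the embryo, went from 6.11, 5.87 and 5.28 to 8.46, 8.49 and 9.82, by 3.30 (SE 0.335, adjusted p = 9.25e-07). Prtg (protogenin), of the same receptor family, rose by 3.01 (adjusted p = 0.000156), and both were above their ESC means of 6.27 and 8.10 on the organoid arrays. Phlda2, an imprinted gene that restrains placental growth, rose by 3.29 (adjusted p = 4.43e-06), from 5.45, 5.02 and 4.20 to 8.89, 7.09 and 8.40.

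Pluripotency genes were higher as a group, and they were also the genes in which the progenitor cultures differed most. Of 26 measured, 18 were called higher and none lower, with a median difference of 1.77 against -0.01 for all genes, and 4 were also called by the 6 arrays alone. The count fell to 10 without progenitor replicate 3 and to 10 without organoid replicate 2. Array by array, these genes averaged 8.51, 8.64 and 7.45 in 8D organoids against 7.65, 6.77 and 5.64 in progenitors, so that progenitor replicate 1 lay above organoid replicate 3, and 8 of the 26 genes had all organoid arrays above all progenitor arrays. Nanog, a core factor of the pluripotent state, read 9.88, 8.48 and 5.21 in progenitors and 10.90, 11.05 and 9.69 in organoids, against a mean of 11.48 in ESCs. Its progenitor arrays spanned more than 4 log2 units and replicate 1 lay above organoid replicate 3. The difference of 2.91 passed the test in the model of all arrays (adjusted p = 0.00316) but not with the 6 arrays alone (adjusted p = 0.195). Tdgf1 (Cripto), a Nodal coreceptor, had the widest progenitor spread, from 10.66 on replicate 1 to 7.87 and 4.02 on the others, and 10.98, 10.68 and 9.61 in organoids. Its difference of 3.08 (adjusted p = 0.0206) was likewise lost with the 6 arrays alone (adjusted p = 0.291).

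Other members of the list differed in how far the groups lay apart. Lin28a, an RNA-binding protein that blocks the maturation of let-7, read 6.97, 6.47 and 5.85 against 8.68, 8.14 and 8.66, a rise of 1.94 (adjusted p = 0.000113, and 0.0327 with the 6 arrays alone). Dnmt3b, a de novo DNA methyltransferase, went from 6.99, 6.81 and 5.68 to 9.70, 8.60 and 9.28, by 2.46 (adjusted p = 0.00215), and its organoid mean stood above the ESC mean of 8.50. Pou5f1 (Oct4) moved less, from 6.83, 5.98 and 5.93 to 7.28, 7.28 and 6.43, a difference of 0.85 (adjusted p = 0.026) that the 6 arrays alone did not call (adjusted p = 0.236). The groups overlapped in Pou5f1, as they did in Nanog and Tdgf1. By immunocytochemistry the paper found Oct4 absent from the progenitors, which is a reading of protein and not of RNA. Klf4, a factor of naive ESCs, read 8.55, 8.41 and 7.63 in progenitors and 8.04, 8.33 and 6.65 in organoids (difference -0.49, adjusted p = 0.372), and Zfp42 (Rex1) read 9.68, 8.23 and 4.64 against 9.97, 10.40 and 8.10 (difference 2.24, adjusted p = 0.0596). Both missed the threshold. In the progenitors, Zfp42 followed the same order of replicates as Nanog.

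**Figure D2:**
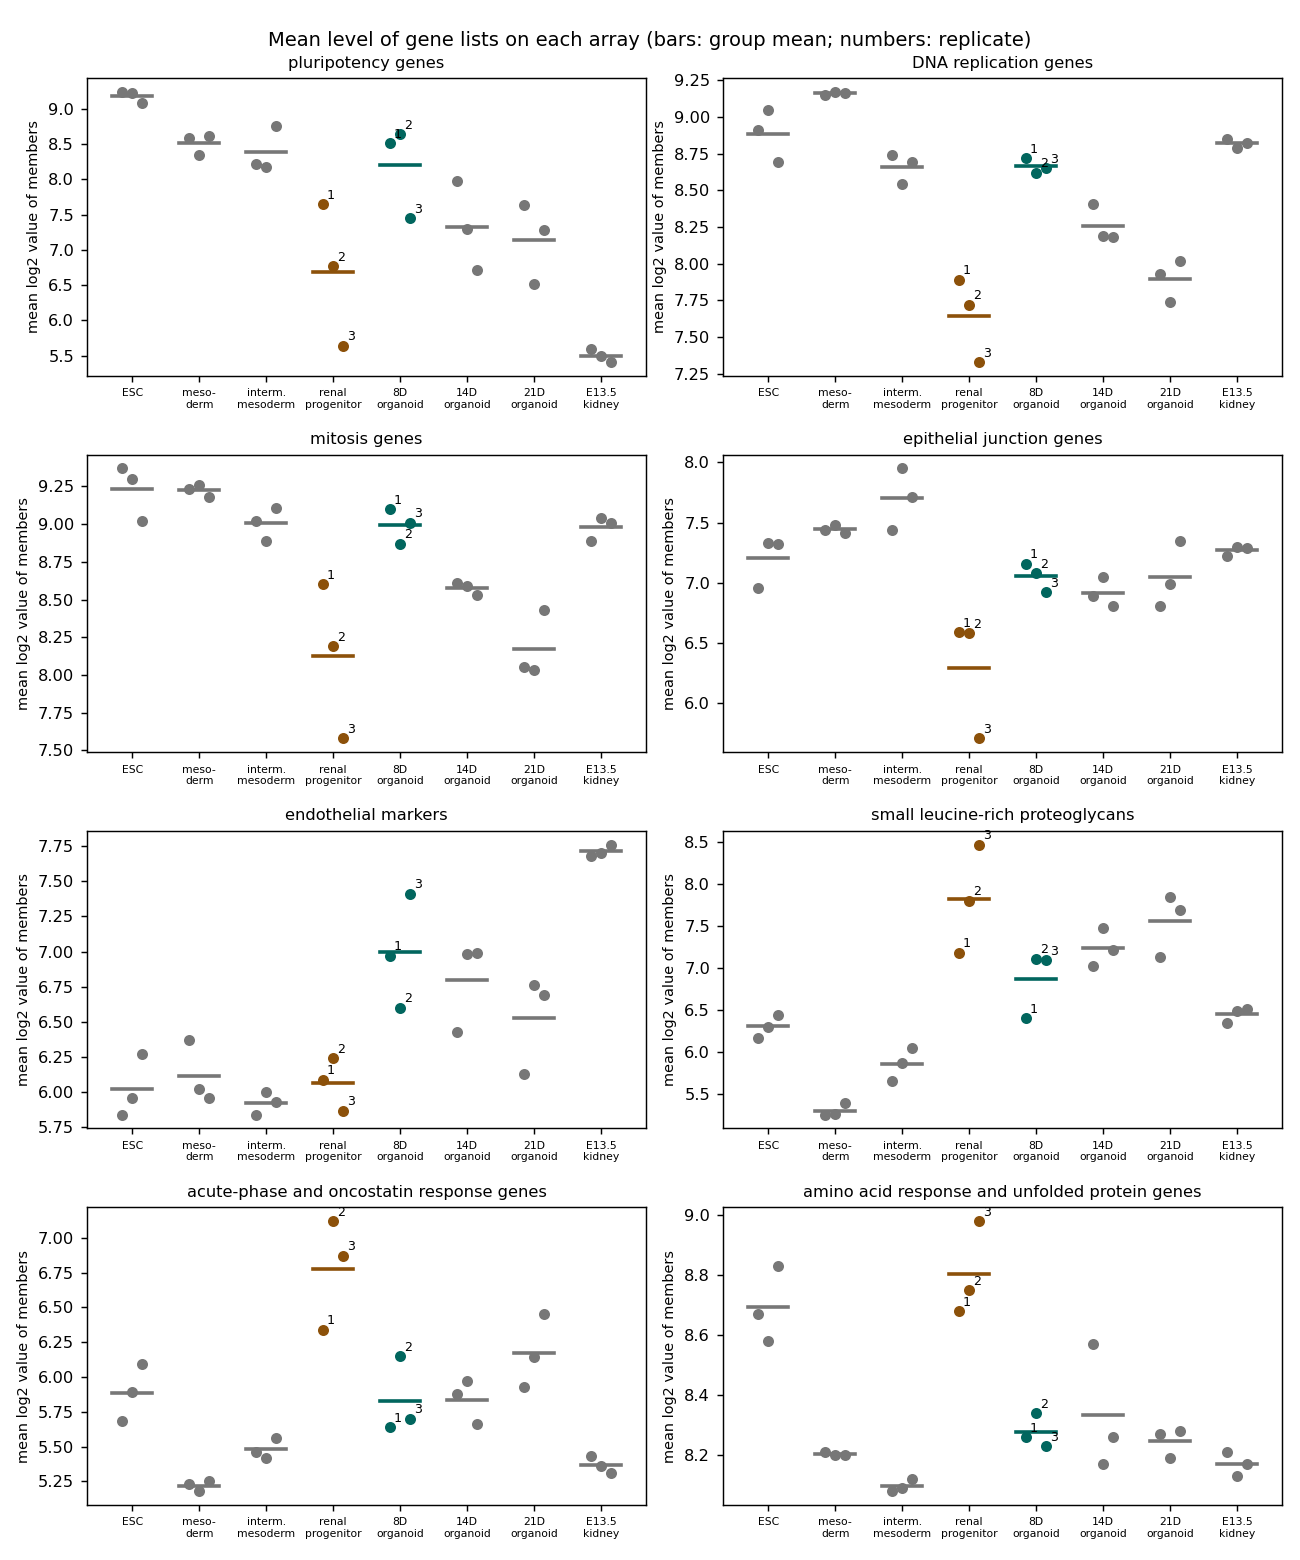
Mean log2 level of the members of 8 gene lists on each array, for 8 of the 10 groups, with bars for group means and replicate numbers beside the progenitor (brown) and 8D organoid (green) points. Pluripotency genes ranged from 5.64 to 7.65 over the progenitor arrays, which overlap the organoids, whereas the DNA replication genes of the 8D organoids lay between 8.62 and 8.72, above all progenitor arrays (7.33 to 7.89).

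DNA replication genes had the largest share of called members of the 46 lists. Of 44 measured, 39 were higher in 8D organoids and none was lower, 41 had all organoid arrays above all progenitor arrays, and all 44 differences were above 0 (median 1.09). The 6 arrays alone called 22 of them higher, the most of any list. Mcm3, a subunit of the replicative helicase, read 9.27, 8.70 and 8.13 in progenitors and 10.36, 10.23 and 10.25 in organoids. The organoid arrays agreed within 0.2 log2 units and the difference was 1.66 (adjusted p = 2.23e-06). Mcm6 of the same complex rose by 1.50 (adjusted p = 1.76e-06) and Cdc6, which loads the helicase at origins, by 1.52 (adjusted p = 1.77e-06). Pcna, the sliding clamp, rose less, by 0.74 (adjusted p = 0.000268), from 10.42, 10.12 and 9.75 to 10.83, 10.72 and 10.81, and was not called with the 6 arrays alone (adjusted p = 0.102).

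Mitosis genes rose with them in the model of all arrays. Here 53 of 60 were higher and none lower, with a median of 0.94 and 47 without overlap. With the 6 arrays alone a single gene of the 60 was called, Bub1b, and with the 6 arrays and a batch term 23 were. Their mean level on progenitor replicates 1, 2 and 3 was 8.60, 8.19 and 7.58, an order shared with the replication genes (7.89, 7.72 and 7.33) and with the pluripotency genes, against 9.10, 8.87 and 9.01 in organoids. What part the differences between progenitor cultures had in these counts was not tested. Bub1b, a kinase of the spindle checkpoint, read 7.55, 7.42 and 6.89 in progenitors against 8.69, 8.78 and 8.57, a difference of 1.46 (adjusted p = 4.34e-06). Kif22, a chromosome-moving kinesin, went from 8.00, 7.74 and 6.88 to 8.85, 8.70 and 8.69, by 1.30 (adjusted p = 2.48e-05). Mki67, the proliferation antigen Ki-67, did not follow: progenitors read 10.69, 10.44 and 9.79 and organoids 10.62, 10.48 and 10.70, with overlap and a difference of 0.33 (adjusted p = 0.413). Among 53 histone genes that are expressed with replication, 17 were higher and none lower (9 higher without progenitor replicate 3, and 6 with the 6 arrays alone), although close copies within this family may share probes. Among 28 cell cycle inhibitors and p53 targets, 6 were lower and 3 higher (2 and 1 with the 6 arrays alone). Cdkn2c, an inhibitor of Cdk4 and Cdk6, read 6.70, 6.72 and 6.87 in progenitors and 4.97, 5.42 and 5.66 in organoids, a log2 difference of -1.33 (adjusted p = 0.000208), and Fas, a death receptor, fell by 1.74 (adjusted p = 1.24e-05).

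The promoters of these lists can be read for the letters that cell cycle genes are known to carry. RefSeq promoter windows of 300 bases (build GRCm38.p6, around the start of each gene) were searched on both strands for CCAAT, the box bound by NF-Y, for TTTGAA, the CHR element of mitosis genes, and for TTTCCCGC, an E2F site. Among 32851 windows of all genes, 37.4% held CCAAT, 17.9% TTTGAA and 1.07% TTTCCCGC. Windows were found for 43 of the 53 mitosis genes called higher, and of these 47 windows 78.7% held CCAAT and 76.6% TTTGAA. Since 53 of the 60 genes of that list were called, the shares describe the list and not the call. In the 38 windows found for 32 of the 39 replication genes called higher, the shares were 55.3% for CCAAT, 13.2% for TTTGAA and 13.2% for TTTCCCGC. Over all genes called higher, 3.2% of 2625 windows held TTTCCCGC, against 0.575% of 1738 windows of genes called lower. The windows of Bub1b, at chr2:118597961-118598260 on the plus strand, and Kif22, at chr7:127042371-127042670 on the minus strand, are shown because they hold both CCAAT and TTTGAA, and capitals mark each CCAAT or TTTGAA or its reverse complement, ATTGG or TTCAAA. A match is a description of the letters and not a binding site.
Bub1b: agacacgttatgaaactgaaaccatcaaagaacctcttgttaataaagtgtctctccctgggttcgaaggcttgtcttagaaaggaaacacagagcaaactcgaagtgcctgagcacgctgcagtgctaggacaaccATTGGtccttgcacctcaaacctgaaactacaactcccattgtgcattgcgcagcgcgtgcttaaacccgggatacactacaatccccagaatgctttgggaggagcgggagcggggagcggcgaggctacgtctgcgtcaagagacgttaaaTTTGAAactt
Kif22: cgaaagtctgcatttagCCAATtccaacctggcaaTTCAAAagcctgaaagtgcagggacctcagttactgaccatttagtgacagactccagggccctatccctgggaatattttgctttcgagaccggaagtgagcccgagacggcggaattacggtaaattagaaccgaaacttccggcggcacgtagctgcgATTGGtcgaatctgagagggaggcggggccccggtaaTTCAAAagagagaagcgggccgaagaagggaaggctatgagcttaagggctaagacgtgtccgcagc

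Some microRNA genes of clusters known from ESCs and from proliferating cells were called higher, and those described here were chosen after their values were seen. The array reads a hairpin gene or the transcript that hosts it, so that the arms of a hairpin cannot be told apart and the level is not that of the mature microRNA. The table holds 506 microRNA genes, of which 23 were higher and 25 lower (8 lower without progenitor replicate 2, 51 without progenitor replicate 3, and 12 higher and 14 lower without organoid replicate 1, against 5 higher and 1 lower with the 6 arrays alone), a share below that of all genes in both directions, and 416 matched a RefSeq hairpin. The mature sequences of 11 called members of 6 clusters are shown, with miR-302c-3p standing for the called Mir302 genes, because many share a seed, bases 2 to 8, which sets the targets of a microRNA and is given in capitals. They are from RefSeq on build GRCm38.p6. The cluster of Mir302c and Mir367 lies on chromosome 3, that of Mir290a on 7, those of Mir18, Mir20a and the related Mir18b, Mir92-2 and Mir363 on 14 and X, that of Mir93 on 5, and that of Mir99a and let-7c on 16.
miR-302c-3p: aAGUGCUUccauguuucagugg
miR-290a-3p: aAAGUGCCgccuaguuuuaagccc
miR-20a-5p: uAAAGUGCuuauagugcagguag
miR-93-5p: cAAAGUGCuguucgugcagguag
miR-18a-5p: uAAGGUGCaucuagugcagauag
miR-18b-5p: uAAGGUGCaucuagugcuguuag
miR-367-3p: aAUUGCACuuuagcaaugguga
miR-363-3p: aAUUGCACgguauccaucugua
miR-92a-3p: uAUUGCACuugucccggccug
let-7c-5p: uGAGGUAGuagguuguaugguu
miR-99a-5p: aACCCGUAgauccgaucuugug

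On the plus strand, miR-302c-3p lies at chr3:127545406-127545427, miR-367-3p at chr3:127545779-127545800, miR-290a-3p at chr7:3218674-3218697, miR-18a-5p at chr14:115043867-115043889, miR-20a-5p at chr14:115044183-115044205, miR-99a-5p at chr16:77598940-77598961 and let-7c-5p at chr16:77599672-77599693. On the minus strand, miR-93-5p lies at chr5:138165574-138165596, miR-363-3p at chrX:52741697-52741718, miR-92a-3p at chrX:52741854-52741874 and miR-18b-5p at chrX:52742381-52742403. In these sequences miR-367-3p, miR-363-3p and miR-92a-3p, from the chromosome 3 and X clusters, carry the same seed, as do miR-18a-5p and miR-18b-5p, and miR-20a-5p and miR-93-5p. In the Mir302 and Mir367 cluster all 5 hairpin genes had differences above 0 and 3 were called higher. Mir302a read 2.06, 2.16 and 1.32 in progenitors and 5.87, 3.30 and 5.32 in organoids, a difference of 2.80 (adjusted p = 0.00195), and Mir302c 2.18, 2.11 and 2.60 against 6.17, 3.04 and 6.01 (2.50, adjusted p = 0.00603). Organoid replicate 2 was the lowest organoid array in both, close to the ESC means of 3.56 and 3.73. Mir367 went the same way, from 1.76, 1.73 and 1.83 to 3.48, 1.87 and 3.46. In Mir302a, Mir302c and Mir367 the progenitors and organoid replicate 2 were at the dim end of the scale, so that the rises rest mainly on organoid replicates 1 and 3. Mir290a, from the other cluster of ESCs, read 6.38, 5.39 and 3.40 against 7.66, 7.41 and 6.76, below the ESC mean of 9.17, with a difference of 2.31 (adjusted p = 0.0134).

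From the chromosome X cluster, Mir18b rose most, from 4.81, 3.12 and 3.22 to 7.38, 6.19 and 6.33, by 2.97 (adjusted p = 2.58e-05, and 0.0362 with the 6 arrays alone). Mir363 of that cluster rose by 2.32 (adjusted p = 0.000184) and Mir92-2 by 1.08 (adjusted p = 0.0142), and all 5 of its genes in the table had differences above 0. On chromosome 14, Mir18 went from 5.58, 5.68 and 5.93 to 6.83, 6.42 and 7.86 (1.24, adjusted p = 0.00309) and Mir20a rose by 1.19 (adjusted p = 0.0103), while Mir17 of the same cluster gave 0.27 (adjusted p = 0.635). Mir93 on chromosome 5, with 0.45 (adjusted p = 0.0449), lost its call in 12 of the alternatives. The pair on chromosome 16 moved the other way. Mirlet7c-1 read 4.37, 5.60 and 5.08 in progenitors and 2.38, 3.85 and 4.31 in organoids, a log2 difference of -1.53 (adjusted p = 0.0131), and Mir99a read 5.61, 5.88 and 5.62 against 4.01, 4.38 and 4.91, a log2 difference of -1.38 (adjusted p = 0.00123). Their host transcript, Mir99ahg, fell by 1.43 (adjusted p = 0.00443). Lin28b, which like Lin28a holds back let-7 maturation, rose from 5.35, 4.92 and 4.41 to 7.63, 6.49 and 7.65 (2.29, adjusted p = 3.88e-05). Trim71, Hmga2 and Igdcc3, which are let-7 targets, rose by 1.79, 1.47 and 3.30. Lin28b and Trim71 were chosen after their values were seen. No set of let-7 targets was counted, and a link of these genes to let-7 was not tested.

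**Figure D3:**
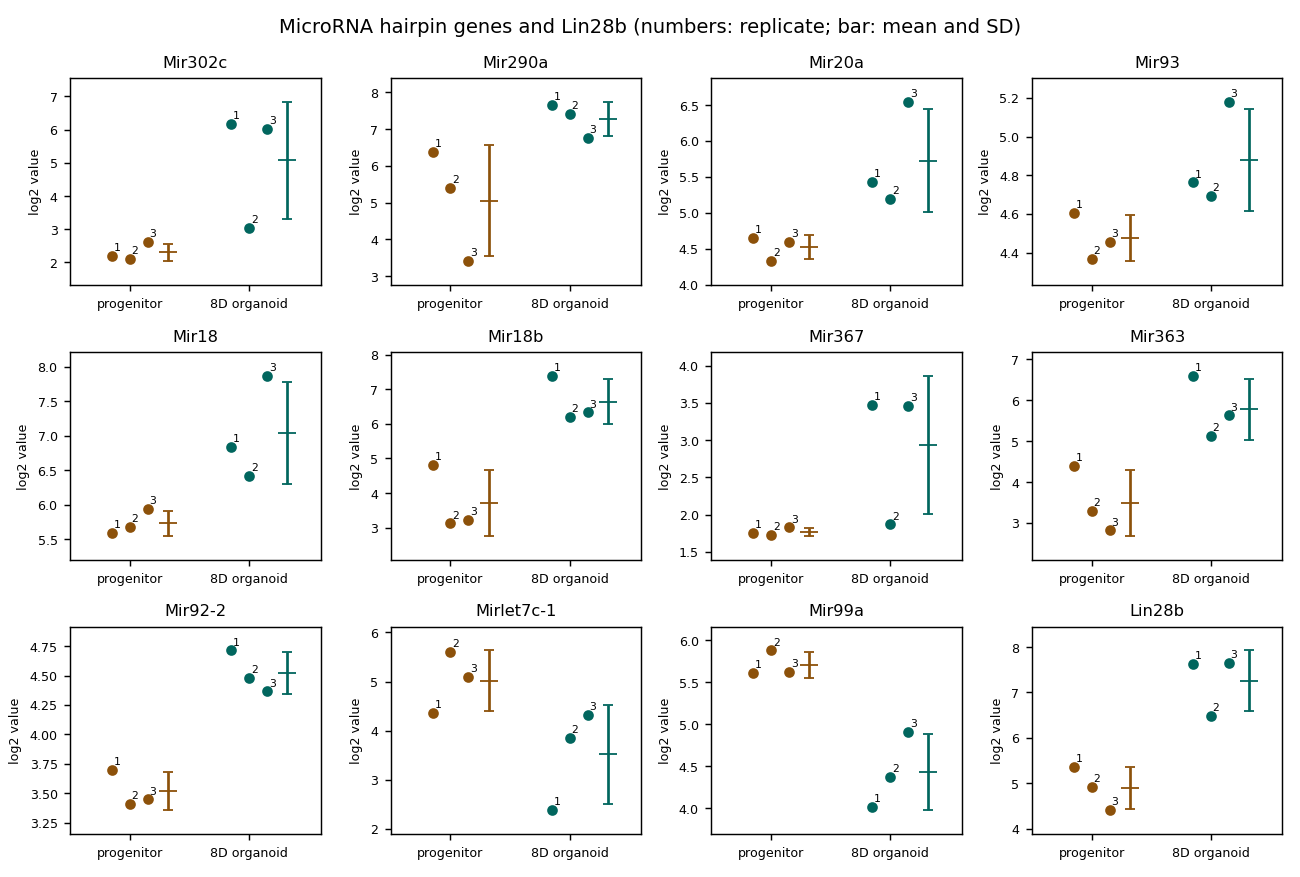
Log2 levels of 11 microRNA hairpin genes and Lin28b on the 3 progenitor and 3 8D organoid arrays, with replicate numbers beside the points and the mean and SD at the side. Mir18b is higher on every organoid array, Mir367 is higher on replicates 1 and 3 and near the progenitors on replicate 2 (1.87), and Mirlet7c-1 and Mir99a are lower on every organoid array.

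Growth factor readouts moved in opposite directions for Wnt and Fgf. Of 23 Wnt and beta-catenin targets, 6 were higher and none lower (2 with the 6 arrays alone, 3 without progenitor replicate 2), with a median of 0.39. Tcf7 and Lef1, transcription factors that carry the Wnt signal and are induced by it, were the firmest. Tcf7 read 8.03, 6.97 and 7.28 in progenitors and 10.09, 9.49 and 9.65 in organoids, a difference of 2.32 (SE 0.231, adjusted p = 8.38e-07). Lef1 read 6.92, 6.42 and 6.16 against 8.38, 8.16 and 9.07, a difference of 1.98 (adjusted p = 0.00065), and the groups were apart in both genes. Axin2, a feedback inhibitor of the pathway, rose by 1.21 (adjusted p = 0.00729), and the 6 arrays alone did not call it (adjusted p = 0.0858). A receptor, Fzd10, rose at a low level from 3.27, 3.44 and 3.52 to 4.90, 5.23 and 5.36 (1.84, adjusted p = 6.12e-06). A ligand, Wnt1, rose by 2.15 (adjusted p = 0.000159) with organoid replicate 1, at 6.64, near the highest progenitor array, at 6.30.

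The feedback genes of Fgf and ERK signalling were lower, 9 of 25, with 2 higher, and 7 of these calls, 6 lower and 1 higher, were also made with the 6 arrays alone. Sprouty proteins, inhibitors that receptor tyrosine kinases induce, fell together. Spry3 read 7.33, 7.77 and 7.31 in progenitors and 5.23, 5.71 and 5.54 in organoids, a log2 difference of -1.99 (adjusted p = 5.24e-06). Spry4 fell by 1.30 (adjusted p = 0.000321), Spry2 by 1.22 (adjusted p = 9.85e-06) and Spry1 by 1.00 (adjusted p = 0.000656). Egr1, an immediate early factor downstream of ERK, was at 8.74, 8.24 and 10.41 against 6.33, 6.72 and 6.76, with progenitor replicate 3 well above the others and a log2 difference of -2.38 (adjusted p = 0.00241). Etv1, an ETS factor of the Fgf response, fell by 1.14 (adjusted p = 0.000834). A ligand went the other way, since Fgf15, a secreted Fgf of the embryo and gut, rose from 7.12, 6.52 and 6.22 to 9.54, 9.67 and 9.31 (2.89, adjusted p = 7.24e-07). Of 30 immediate early and heat shock genes 8 were lower and 3 higher, with 3 lower with the 6 arrays alone or without progenitor replicate 3 and 1 higher without organoid replicate 1. Fos, for example, read 9.58, 7.59 and 9.77 against 6.22, 6.73 and 6.02 (-2.31, adjusted p = 0.00785), and Hspa1a, whose near-identical copy may share its probes, fell by 2.02 (adjusted p = 0.000305).

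Crabp1 and Crabp2, binding proteins for retinoic acid, were among the 25 largest increases. Crabp2, which delivers retinoic acid to the nucleus, rose from 6.33, 6.90 and 6.36 to 9.17, 10.16 and 10.29, by 3.28 (SE 0.304, adjusted p = 7.15e-07), to about its mean of 9.84 in E13.5 kidneys. Crabp1, which holds retinoic acid in the cytoplasm, rose by 3.15 (SE 0.339, adjusted p = 1.7e-06), from 6.77, 6.22 and 5.21 to 8.52, 9.43 and 9.43. The groups were far apart in both genes. Dhrs3, which reduces retinal, fell by 2.06 (adjusted p = 0.00299), while Aldh1a2, which makes retinoic acid, read 7.20, 6.48 and 6.84 against 6.22, 8.06 and 8.22 (adjusted p = 0.251). Over the list of 21 genes, 3 were higher (5 without organoid replicate 1) and 2 lower, and the 6 arrays alone called 2 higher and 1 lower. For Notch, 5 of 20 were higher and 2 lower (3 higher without progenitor replicate 3 or organoid replicate 1, 2 without organoid replicate 3, and 1 with the 6 arrays alone), and Nrarp, a feedback target of Notch, was the firmest, from 6.04, 5.51 and 5.88 to 7.43, 7.51 and 7.63 (1.72, adjusted p = 8.61e-06). Among 22 BMP targets 5 were higher (2 without progenitor replicate 2 or organoid replicate 3, 3 without organoid replicate 1, and 1 with the 6 arrays alone). Hand1, a factor of lateral mesoderm and trophoblast, rose from 5.16, 6.18 and 5.58 to 9.61, 7.26 and 9.75 (3.21, adjusted p = 5.04e-05), with organoid replicate 2 the lowest of the organoids.

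**Figure D4:**
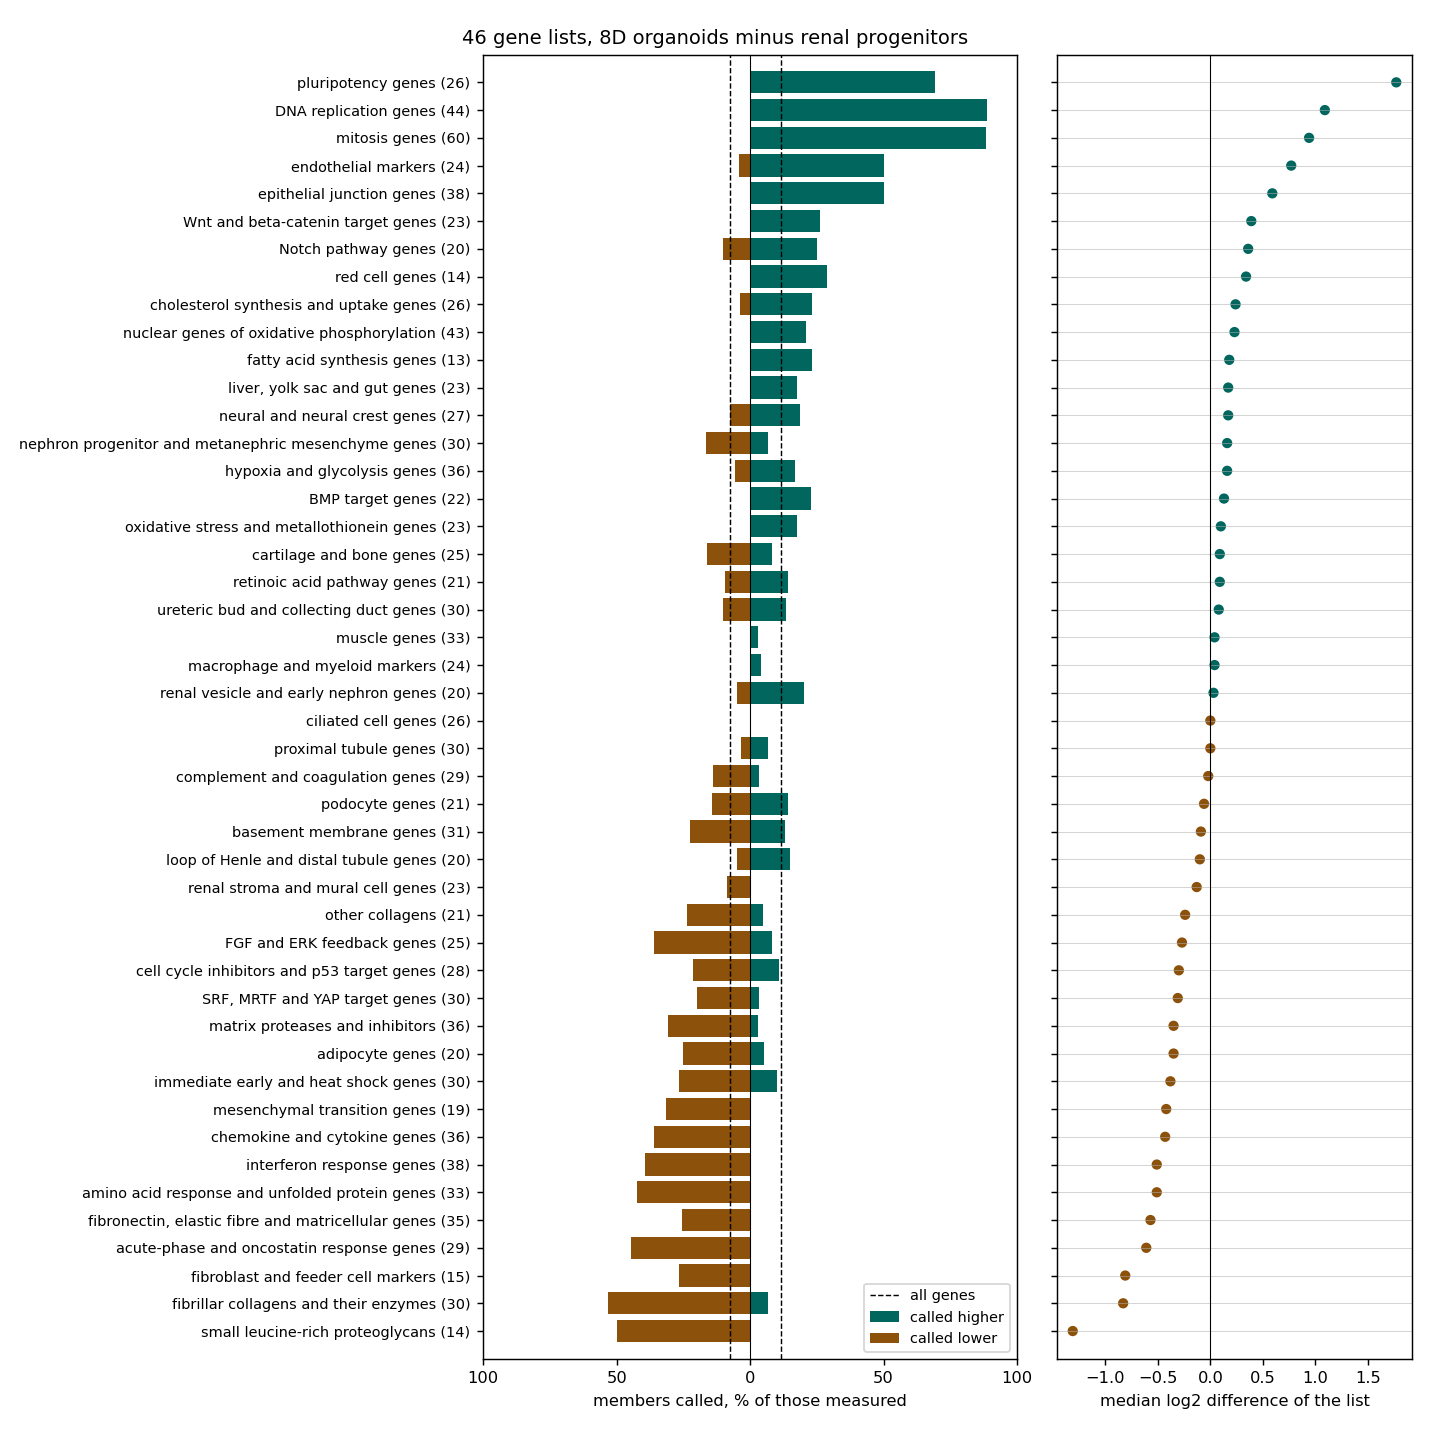
Left, the percent of each of 46 gene lists called higher (green, to the right) or lower (brown, to the left) in 8D organoids, with dashed lines at the shares of all genes, 11.7% and 7.69%, and list sizes in parentheses. Right, the median log2 difference of each list, from 1.77 for pluripotency genes to -1.31 for small leucine-rich proteoglycans.

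Saa3 and Osmr, of the list of acute-phase and oncostatin response genes, had the largest falls among genes whose groups did not overlap. Saa3, an acute-phase serum amyloid, read 7.28, 10.73 and 9.24 in progenitors and 5.18, 6.39 and 4.57 in organoids, a log2 difference of -4.02 (SE 0.656, adjusted p = 0.000128), which the 6 arrays alone missed (adjusted p = 0.0586). Osmr, the oncostatin M receptor, fell by 3.43 (SE 0.334, adjusted p = 7.24e-07), from 9.39, 11.06 and 10.48 to 6.48, 7.85 and 6.91. In both genes progenitor replicate 2 was the highest and the groups stood apart. The coreceptor Il6st fell by 1.00 (adjusted p = 0.000277) and Stat3, the transcription factor it activates, by 1.19 (adjusted p = 0.000154). Of the 29 genes of this list 13 were lower and none higher (median -0.61), and 3 were called with the 6 arrays alone. Chemokine and cytokine genes were lower in 13 of 36 (8 without progenitor replicate 2, and 2 with the 6 arrays alone), with none higher. Csf1, the growth factor of macrophages, read 8.84, 9.53 and 9.97 against 7.35, 7.63 and 7.53 (-2.03, adjusted p = 3.41e-06), Ccl2, which attracts monocytes, fell by 2.07 (adjusted p = 6.63e-05) and the alarmin Il33 fell by 2.68 (adjusted p = 4.41e-05). Interferon response genes were lower in 15 of 38 (8 without organoid replicate 1, 9 in batch 2 alone, and 3 with the 6 arrays alone). None of the 38 was called with the 6 arrays and a batch term. Their mean level in progenitors was 6.47, 6.31 and 6.02, highest on replicate 1, the array of batch 1. The GTPase Iigp1 led them and read 7.86, 7.65 and 7.21 against 4.61, 6.15 and 5.52 (-2.21, adjusted p = 4.13e-05). Markers of macrophages were dim in both groups. The mean of 24 was 5.17, 5.13 and 5.03 in progenitors and 5.17, 5.18 and 5.0 in organoids, 1 was higher and none lower, and Ptprc, which marks all leukocytes, was at or below 3.82 on all 6 arrays.

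Among the 25 largest decreases were also Vcam1, Alcam, both angiotensin II receptors, Cd36 and Papss2. Vcam1, a ligand of integrins, read 9.36, 10.91 and 11.07 in progenitors and 6.58, 7.89 and 7.76 in organoids (-3.11, adjusted p = 6.77e-06). Alcam, an adhesion molecule of the immunoglobulin family, read 9.12, 10.18 and 10.56 against 6.53, 7.54 and 6.88 (-3.09, adjusted p = 8.39e-07). Both angiotensin II receptors fell far. Agtr1a, through which angiotensin raises blood pressure, read 8.45, 8.83 and 9.04 against 6.11, 5.86 and 6.65 (-2.58, SE 0.214), and its adjusted p of 2.66e-07 was the smallest of the 50 largest changes named by rule. Agtr2, a receptor of the fetal kidney mesenchyme, fell by 2.97 (adjusted p = 8.13e-06), from 8.78, 9.99 and 9.54 to 5.68, 7.34 and 6.46. Cd36, which takes up fatty acids, fell by 3.13 (adjusted p = 7.58e-06). It belongs to a list of 20 adipocyte genes of which 5 were lower and 1 higher (3 lower without progenitor replicate 2 or 3, and 2 with the 6 arrays alone), among them Cebpa and Pparg, regulators of adipocyte formation, which fell by 1.78 and 2.02. Papss2, which makes the sulfate donor for proteoglycans, fell by 3.07 (adjusted p = 1.39e-05).

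Matrix genes were lower in several lists. Small leucine-rich proteoglycans, which coat collagen fibrils, had the lowest median of the 46 lists (-1.31), with 7 of 14 lower and none higher, but only 2 without progenitor replicate 3, 3 without organoid replicate 1 and 1 with the 6 arrays alone. Ogn (osteoglycin) read 9.36, 11.03 and 11.87 in progenitors and 7.51, 9.24 and 9.16 in organoids, a log2 difference of -2.28 (adjusted p = 0.00297) that the 6 arrays alone did not call (adjusted p = 0.128). Among fibrillar collagens and the enzymes that process them, 16 of 30 were lower and 2 higher (9 lower without organoid replicate 1, and 2 with the 6 arrays alone). P4ha3, a collagen prolyl hydroxylase, fell by 2.48 (adjusted p = 0.00131), from 9.95, 8.74 and 10.86 to 7.78, 6.89 and 7.20, and Pcolce, which helps to cleave procollagen, by 1.25 (adjusted p = 0.00112). The main collagen genes themselves were not called. Col1a1 read 10.35, 11.29 and 11.46 against 9.60, 11.23 and 10.62 (-0.62, adjusted p = 0.248), and Col3a1 10.21, 10.82 and 10.57 against 8.58, 10.71 and 9.98 (-0.77, adjusted p = 0.232). Matrix proteases and inhibitors were lower in 11 of 36 (6 without organoid replicate 1, and 3 with the 6 arrays alone), and Adamts12, a metalloprotease of the matrix, fell by 2.79 (adjusted p = 8.13e-06). In basement membranes 4 of 31 genes were higher and 7 lower (4 lower without progenitor replicate 2 or organoid replicate 1, and 2 higher and none lower with the 6 arrays alone). Lama5 and Col18a1, of epithelial and vascular basement membranes, rose by 1.23 (adjusted p = 0.000418) and 1.34 (adjusted p = 1.24e-05), while Lama4, Lamb1 and Nid1 fell by 1.13, 1.03 and 1.08. Ddr2, a collagen receptor of mesenchyme, read 10.38, 11.19 and 11.16 against 7.09, 8.94 and 8.75 (-2.63, adjusted p = 0.000177). The mean of 15 markers of fibroblasts and feeder cells lay at 9.04, 9.59 and 9.65 in progenitors and 7.97, 9.19 and 9.14 in organoids, with organoid replicate 1 the lowest, and 4 were called lower (2 without progenitor replicate 2, progenitor replicate 3 or organoid replicate 1, and none with the 6 arrays alone). Among its defining markers, Pdgfra was at 10.81, 11.29 and 11.01 against 9.04, 10.49 and 10.36 (adjusted p = 0.0979), and the part that fewer fibroblast-like cells had in the matrix counts was not tested.

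Genes of protein folding stress and of the response to amino acid shortage were lower in 14 of 33, with none higher and a median of -0.51 (4 lower with the 6 arrays alone, 9 without progenitor replicate 3 and 9 without organoid replicate 1). All organoid arrays lay below all progenitor arrays in 18. Herpud1, which serves the removal of misfolded proteins from the endoplasmic reticulum, read 10.17, 10.42 and 10.62 in progenitors and 8.34, 9.0 and 8.75 in organoids (-1.76, adjusted p = 1.66e-06). Ddit3 (Chop), a transcription factor of prolonged stress, read 8.38, 8.51 and 8.69 against 6.80, 7.11 and 7.02 (-1.55, adjusted p = 3.88e-06). Both groups were tight in these genes. The stress factors Atf4 and Xbp1 fell by 0.97 and 0.94, and Hspa5 (BiP), the main chaperone of the endoplasmic reticulum, fell by 0.98 (adjusted p = 3.37e-05), from 10.01, 10.29 and 10.54 to 9.21, 9.28 and 9.40. The stress element of such promoters contains CCAAT. Windows were found for 12 of these 14 lower genes. Of the 13 windows 69.2% held CCAAT, against 37.4% of all windows and 78.7% of those of the mitosis genes, which went up. The window of Hspa5, at chr2:34771840-34772139 on the plus strand (RefSeq, GRCm38.p6), is shown as an example of a promoter with several copies, with CCAAT or ATTGG in capitals.
Hspa5: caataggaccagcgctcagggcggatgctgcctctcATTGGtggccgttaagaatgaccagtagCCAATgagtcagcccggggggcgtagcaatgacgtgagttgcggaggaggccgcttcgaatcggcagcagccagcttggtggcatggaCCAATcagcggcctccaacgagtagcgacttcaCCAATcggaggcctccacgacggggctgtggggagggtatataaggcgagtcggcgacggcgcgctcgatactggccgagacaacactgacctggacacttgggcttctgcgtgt

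**Figure D5:**
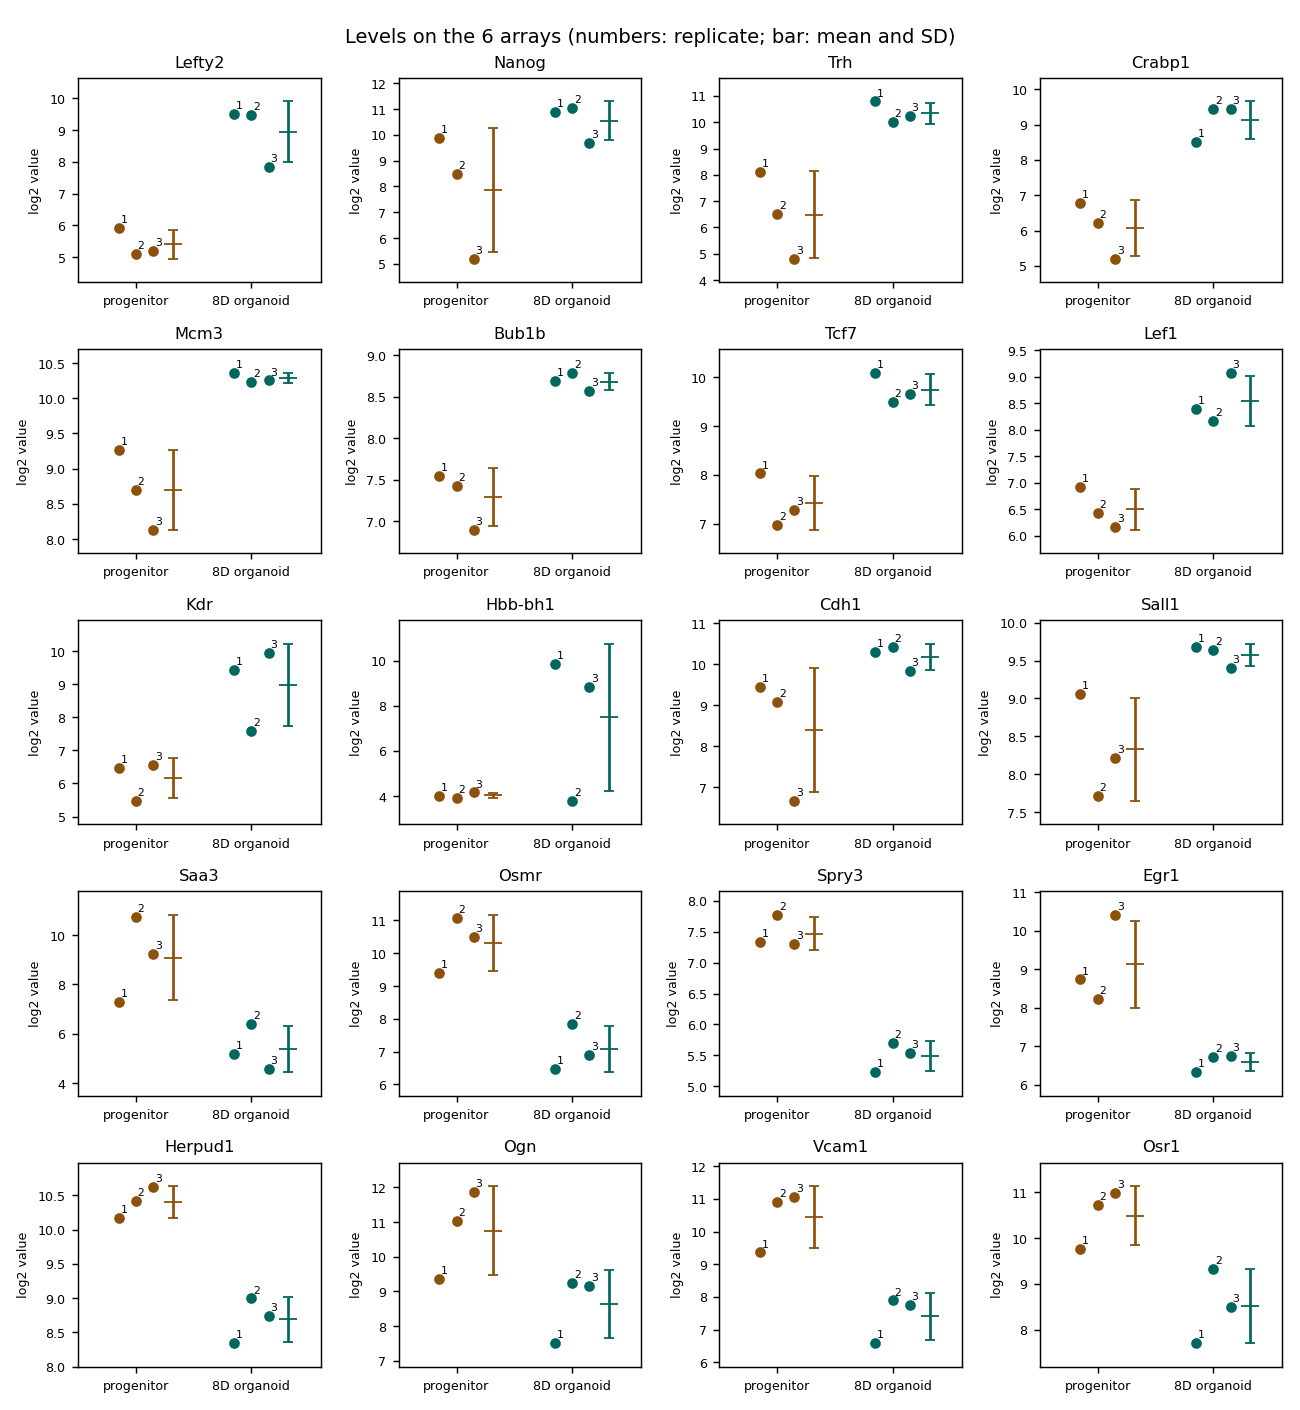
Log2 levels of 20 genes on the 3 progenitor (brown) and 3 8D organoid (green) arrays, numbered by replicate, with the mean and SD at the side and a separate y axis for each gene. Mcm3 varied little among organoids (10.23 to 10.36), Nanog overlapped between the groups, and Hbb-bh1 was high on organoid replicates 1 and 3 (9.87 and 8.82) and at the progenitor level on replicate 2 (3.79).

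Epithelial junction genes were higher in 19 of 38 and lower in none, with a median of 0.59, and 19 had organoid arrays above all progenitor arrays. The count fell to 9 without progenitor replicate 3, to 10 without organoid replicate 1 and to 1 with the 6 arrays alone. Progenitor replicate 3 had the lowest mean of the list, 5.71, against 6.59 and 6.58 on the others and 7.16, 7.08 and 6.92 in organoids. Cdh1 (E-cadherin), which joins epithelial cells and which ESCs also express (mean 10.91), read 9.44, 9.07 and 6.66 in progenitors and 10.29, 10.42 and 9.83 in organoids (1.83, adjusted p = 0.00253). Dsp (desmoplakin), of desmosomes, rose by 2.26 (adjusted p = 0.000417). Krt8, a keratin of simple epithelia, gave 1.14 with an adjusted p of 0.0476 that 12 alternatives pushed past the threshold. Of 19 genes of mesenchymal transition, 6 were lower and none higher (3 lower without progenitor replicate 3 or without organoid replicate 1, and 2 with the 6 arrays alone). Cdh2 (N-cadherin), of mesenchyme and early nephrons, read 9.57, 9.33 and 10.35 against 9.55, 9.13 and 10.11 (adjusted p = 0.679). Pluripotent cells express many of these junction genes. Both this list and the pluripotency list were lowest on progenitor replicate 3, and the part of pluripotent cells in the epithelial count was not tested.

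Genes by which the kidney lineages are recognized changed in both directions. Of 30 genes of nephron progenitors and metanephric mesenchyme 2 were higher and 5 lower (3 lower without progenitor replicate 3 or without organoid replicate 1, and 1 higher and 1 lower with the 6 arrays alone). The shares of 6.67% higher and 16.7% lower stand against 11.7% and 7.69% of all genes. Osr1, the earliest factor of intermediate mesoderm and kidney, read 9.76, 10.72 and 10.98 in progenitors and 7.72, 9.34 and 8.51 in organoids, below the 11.04 of E13.5 kidneys, and fell by 1.96 (adjusted p = 0.00133, and 0.0612 with the 6 arrays alone). Sall1, needed for nephron progenitors but high in ESCs too (9.94), went from 9.06, 7.71 and 8.21 to 9.68, 9.64 and 9.41 (1.29, adjusted p = 0.000505). Both groups were apart in these genes, in opposite directions. Six2, the defining factor of nephron progenitors, read 5.08, 5.36 and 5.32 against 5.75, 5.96 and 6.30. Every organoid array was above every progenitor array, the difference of 0.70 missed the threshold (adjusted p = 0.15), and both groups were far below the mean of 9.74 in E13.5 kidneys. Eya1, its partner, read 10.29, 8.94 and 10.67 against 7.61, 8.78 and 9.73 (-1.24, adjusted p = 0.0533). Robo2, which confines the outgrowth of the ureteric bud, fell by 1.58 (adjusted p = 5.37e-05), from 9.81, 9.37 and 9.23 to 7.50, 8.21 and 7.73, and was called with the 6 arrays alone as well (adjusted p = 0.0327). Meox1, a homeobox factor of somites and mesenchyme, fell by 2.18 (adjusted p = 0.000155).

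No difference passed the test for several other kidney factors that the study names. Wt1, of nephron progenitors and podocytes, read 6.24, 6.91 and 7.27 against 6.71, 7.34 and 7.17 (0.22, adjusted p = 0.64), and Pax2, of the renal epithelium, 5.52, 4.42 and 6.47 against 5.11, 5.50 and 4.93 (-0.27, adjusted p = 0.678), with E13.5 means of 9.64 and 9.71. Cited1, Hoxa11, Hoxc11 and Hoxd11 had differences between 0.31 and 0.73, with adjusted p from 0.19 to 0.378. Ret, the receptor that drives branching of the ureteric bud, was at 7.68, 6.39 and 8.61 against 6.65, 6.56 and 7.09 (adjusted p = 0.234), Gata3 at 7.20, 6.96 and 7.72 against 7.03, 7.23 and 7.89 (adjusted p = 0.861), and Hoxb7 at 6.16, 4.78 and 7.44 against 5.13, 4.94 and 5.33 (adjusted p = 0.076). Progenitor arrays spread more than the organoids in Ret and Hoxb7, and replicate 3 was the highest. The stromal factor Foxd1 (0.87, adjusted p = 0.0587), the nephron genes Jag1 (-0.12, adjusted p = 0.834) and Cdh6 (-0.69, adjusted p = 0.3), the water channel Aqp2 (0.09, adjusted p = 0.806) and the endothelial Cd34 (0.62, adjusted p = 0.333) were not called either. The drug transporters Slc22a2, Slc22a6 and Slc22a8 were dim in both groups, at or below 5.18 on all 6 arrays.

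Among later nephron genes, 4 of 20 of the renal vesicle were higher and 1 lower (2 higher without progenitor replicate 2 or organoid replicate 3, 4 lower without progenitor replicate 2, and 1 in each direction with the 6 arrays alone). Lhx1, a factor of the renal vesicle and also of early mesoderm, rose from 4.14, 4.50 and 4.54 to 6.73, 5.85 and 6.90 (1.87, adjusted p = 0.0174, and 0.0322 with the 6 arrays alone). Of 21 podocyte genes 3 were higher and 3 lower (1 lower without progenitor replicate 3 or organoid replicate 1, and none called with the 6 arrays alone). Podxl, a sialomucin of podocytes, endothelium and ESCs alike, rose by 2.01 (adjusted p = 0.00335). Of 30 proximal tubule genes 2 were higher and 1 lower with a median of -0.00, of 20 genes of the loop of Henle and distal tubule 3 were higher and 1 lower, of 30 genes of the ureteric bud and collecting duct 4 were higher and 3 lower, and of 23 genes of stroma and mural cells 2 were lower. Without organoid replicate 1 no gene of the ureteric bud or proximal lists was higher. The stromal list changed direction without that array, with 2 genes higher and none lower and a median of 0.16 in place of -0.13. Without progenitor replicate 3 none of the proximal and distal lists was higher. Without progenitor replicate 2, 6 ureteric bud genes were lower. None of the 4 lists had more than 1 gene called with the 6 arrays alone.

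Endothelial markers were higher in 12 of 24 and lower in 1, with a median of 0.77, and 2 were called higher with the 6 arrays alone. Kdr, the receptor of VEGF, read 6.47, 5.47 and 6.55 in progenitors and 9.42, 7.58 and 9.94 in organoids (2.69, adjusted p = 0.00212, and 0.0504 with the 6 arrays alone), near the E13.5 mean of 9.37. Erg and Sox18, endothelial transcription factors, rose by 2.25 (adjusted p = 0.00105) and 2.15 (adjusted p = 0.000758). Organoid replicate 2 was the lowest organoid array in all 3 genes. Pecam1, of endothelium and also of ESCs (mean 9.39), rose by 2.55 (adjusted p = 9.91e-06), from 7.92, 6.38 and 5.51 to 9.05, 9.10 and 8.62, with the progenitors in the same order as in Nanog. Emcn (endomucin), of veins and capillaries, was the exception, falling from 9.32, 9.49 and 9.29 to 7.09, 8.43 and 8.21 (-1.41, adjusted p = 0.00156).

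Embryonic globin appeared on some organoid arrays. Hbb-bh1, an embryonic beta-like globin, read 3.99, 3.93 and 4.16 in progenitors and 9.87, 3.79 and 8.82 in organoids. Replicates 1 and 3 were more than 4 log2 units above the progenitors and replicate 2 was at their level, so that the difference of 3.54 (adjusted p = 0.0155) rests on 2 of the 3 organoids and was lost with the 6 arrays alone (adjusted p = 0.196). The adult globin Hba-a1 read 6.82, 6.08 and 6.90 against 6.85, 6.30 and 6.78 (adjusted p = 0.881). Of 14 red cell genes 4 were higher and none lower, and none was called without organoid replicate 1 or without organoid replicate 3, 1 or 2 without each progenitor array, and none with the 6 arrays alone. Organoid replicates 1 and 3 were also the higher ones in Kdr, Hand1, Mir302a and Apob, an apolipoprotein of yolk sac and liver that read 8.47, 7.15 and 8.32 against 5.38, 5.27 and 4.02 (3.27, adjusted p = 0.00112).

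The 14D and 21D organoids show whether these levels lasted. They share the 8D arrays with the comparison above, so that a high reading at 8 days enters both with opposite sign, and the values are given side by side. From 8D to 14D, 390 genes (1.63%) rose and 106 (0.442%) fell, and from 8D to 21D 1427 (5.95%) rose and 1328 (5.54%) fell. The first counts rest largely on 8D organoid replicate 1, without which 50 rose and 3 fell by 14D and 695 rose and 477 fell by 21D. The falls by 14D also went to 219 without 8D organoid replicate 3, and the counts by 14D to 253 rising without 14D replicate 1, 32 falling without 14D replicate 2, and 136 rising and 14 falling without 14D replicate 3. Without 21D replicate 2, 904 rose and 534 fell by 21D.

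Several genes that had gone up by 8D were lower later. Mcm3 had means of 10.28 at 8D, 9.72 at 14D and 9.24 at 21D, a change of -1.04 from 8D to 21D (adjusted p = 0.00061), and Bub1b 8.68, 8.20 and 7.66 (-1.02, adjusted p = 0.000387). Phlda2 fell from 8.13 to 5.98 and 5.44, back near its progenitor mean of 4.89, and changed by -2.15 by 14D (adjusted p = 0.00371) and -2.69 by 21D (adjusted p = 8.1e-05). Hand1 changed by -2.72 by 21D (adjusted p = 0.000581), and Lin28a by -1.22 by 14D (adjusted p = 0.0357). Igdcc3, Crabp1, Crabp2 and Fgf15 stayed up, with 21D means of 8.47, 8.75, 9.64 and 9.35 and no call from 8D to either later time. For Nanog the later means were 9.52 and 9.23 against 10.55 at 8D, with no call (adjusted p = 0.455 and 0.22).

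Of the genes that had gone down, some returned and some did not. Alcam rose again by 1.65 by 14D (adjusted p = 0.00519) and 1.91 by 21D (adjusted p = 0.000296), to a mean of 8.89 against 9.95 in progenitors, and Robo2, Mir99a and Dpt (dermatopontin, a protein of the dermal matrix, which fell by 3.11 from progenitors to 8D) rose by 1.30, 1.56 and 2.94 by 21D, all called. Serpina3n, a protease inhibitor of the acute phase with close paralogs, fell by 2.29 by 8D (adjusted p = 0.000536) and rose by 2.23 by 21D (adjusted p = 0.00123). Osmr, Agtr1a, Papss2 and Spry4 stayed low, with 21D means of 7.23, 6.14, 7.60 and 7.61 and no call from 8D. Herpud1 rose in part, by 0.73 by 14D (adjusted p = 0.0362) and 0.80 by 21D (adjusted p = 0.0056), while Hspa5 (0.17, adjusted p = 0.479) was not called.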

How the data were processed

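Total RNA of 30 samples (10 groups of 3) was hybridised to Affymetrix Mouse Gene 2.0 ST arrays. The authors normalized them by RMA, and the deposited log2 values per gene symbol were used as they are, without filter. How probe sets were assigned to genes, and whether batch was corrected, is not given in the sources used here. Medians of the arrays lay between 5.757 and 5.941. limma 3.58.1 in R 4.3.3 (lmFit, eBayes) fitted group and batch over all arrays (19 residual degrees of freedom, prior 4.65), with Benjamini-Hochberg adjustment over 23986 genes, two-sided, and every adjusted p is from limma. The script was tested on simulated data with equal spread in all groups, which does not cover the wider spread of the progenitors. The number of arrays limits the precision.

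Genes named are those the study names, the 25 largest increases and 25 largest decreases without overlap (predicted genes, small RNAs and olfactory receptors left out) and up to 6 called members of each of 46 lists. Other members are given by value, and microRNAs, Lin28b, Trim71, Wnt1, Fzd10, Hox, Gria and further genes (such as Hspa5, Mcm6, Kif22) were chosen after their values were seen. Of 1219 list genes, 1197 were measured. Members and lists were chosen with earlier results of these data known. To read the background, 1399 olfactory or vomeronasal receptors had array medians of 3.39, 3.37 and 2.99 in progenitors and 3.07, 2.92 and 2.94 in 8D organoids, and 2 were called higher and 104 lower (49 to 228 lower without 1 of the 6 arrays, the most without progenitor replicate 3, 54 in batch 2 alone and 10 with the 6 arrays alone), with a median difference of -0.21. Of 124 above a level of 5, 15 were lower (median -0.29). Sequences are from RefSeq.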

Additional observations from a re-analysis of the deposited data

How the results depend on the processing

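The count of genes called was 4658. It was 649 with the 6 arrays alone and no batch term (458 higher, 191 lower), 918 with the 6 arrays and a batch term (513 and 405), and 1337 at an absolute log2 difference of 1 or more (666 and 671). Leaving out each array gave 3164 to 4724 called, 1980 to 2779 higher and 1184 (without organoid replicate 1) to 2084 lower. For 14D minus 8D organoids it gave 50 to 435 higher and 3 to 219 lower, and for 21D minus 8D organoids 695 to 1344 higher and 477 to 1250 lower. Array weights, batch 2 alone, no batch term, a trended prior, a filter on dim genes, quantile normalization and median centring gave 4533 to 4938 called. Of 316 named called genes none changed sign, 104 kept the call with the 6 arrays alone and no batch term, 139 with a batch term, and 242 to 296 without an array.

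Whether the replicate numbers pair the samples is not stated in the labels. Deviations from the group means correlated at 0.214, -0.051 and 0.284 for same-numbered progenitor and organoid arrays, and at -0.334 to 0.131 for the others. These values do not settle it, since replicates 1 and 3 gave the highest values and replicate 2 did not. A block for the replicate number gave 4096 called (2475 higher, 1621 lower), 407 and 109 for 14D and 1444 and 1303 for 21D, and 284 of the 316 genes kept the call. Signals near the level of the receptor genes limit what can be read of dim genes.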

Other observations

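Single Hox genes, chosen after their values were seen, were called in either direction. Hoxd13, of the posterior end of its cluster, rose from 4.95, 4.68 and 4.64 in progenitors to 6.08, 5.68 and 6.43 in 8D organoids (log2 difference 1.55, adjusted p = 0.00384). Hoxc8, Hoxb6 and Hoxc6, of trunk levels, had log2 differences of -1.28, -1.27 and -1.24 (adjusted p = 0.0356, 0.0181 and 0.0253). Progenitor replicates differed by more than 1 log2 unit in each of these 3 genes, and no call was made with the 6 arrays alone (adjusted p = 0.199, 0.138 and 0.196).

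Some neuronal genes fell, although the list of neural and neural crest genes did not fall as a whole. Of its 27 measured genes 5 were higher (18.5%) and 2 lower (7.41%), against 11.7% and 7.69% of all genes. Its median was 0.17, and 19 differences were above 0. Gabra3 and Gria4 were among the 25 largest decreases, Snap25 is of the neural list, and Gria3 was added after its values were seen. Gabra3, a subunit of the GABA-A receptor, read 8.27, 10.02 and 10.03 in progenitors and 6.51, 6.53 and 6.97 in organoids (log2 difference -2.85, adjusted p = 8.61e-06). Gria4 and Gria3, subunits of AMPA glutamate receptors, fell by 2.63 (adjusted p = 8.94e-06) and 2.13 (adjusted p = 8.26e-06), and every organoid array lay below every progenitor array in these 3 genes. Snap25, of the machinery of vesicle release, read 8.58, 6.64 and 10.85 in progenitors against 6.29, 6.65 and 6.56, with replicate 2 at the organoid level, and its adjusted p of 0.0289 became 0.211 with the 6 arrays alone. At 21D, Snap25 had a mean of 9.47.

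Genes of metabolism moved by less. Of 43 nuclear genes of oxidative phosphorylation, 40 had differences above 0 and 9 were higher in organoids (median 0.23), with Cox5a, a subunit of cytochrome c oxidase, from 7.88, 7.96 and 8.26 to 9.09, 9.40 and 8.80 (1.08, adjusted p = 0.000856). Slc2a3, a glucose transporter of early embryos, rose by 1.82 (adjusted p = 0.000209), from 11.01, 9.86 and 8.79 to 11.63, 11.57 and 11.56. Fasn, the fatty acid synthase, rose by 1.01 (adjusted p = 5.22e-05). With the 6 arrays alone 1 of the 43 genes was called.

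The remaining lists are given by their counts, with 11.7% of all genes higher and 7.69% lower. Of 35 genes of fibronectin, elastic fibres and matricellular proteins, 9 were lower and none higher, a share of 25.7%. The count was 14 without progenitor replicate 1, 6 without progenitor replicate 3 or organoid replicate 1 and 0 with the 6 arrays alone, and the median went from -0.57 to -0.13 without organoid replicate 1. Targets of SRF and YAP were lower in 6 of 30 and higher in 1 (10 lower without progenitor replicate 1, none with the 6 arrays alone), and other collagens lower in 5 of 21 and higher in 1 (2 lower with the 6 arrays alone), or 20% and 23.8% lower. Of 36 genes of hypoxia and glycolysis 6 were higher and 2 lower, with 3 higher without progenitor replicate 2 or 3 or organoid replicate 3 and 10 without progenitor replicate 1, and none called with the 6 arrays alone. Cholesterol genes were higher in 6 of 26 and lower in 1, and fatty acid synthesis genes higher in 3 of 13, 23.1% of each list, of which the 6 arrays alone called none and 1. Neural and neural crest genes were higher in 5 of 27 and lower in 2 (2 higher and 6 lower without progenitor replicate 2). Genes of liver, yolk sac and gut were higher in 4 of 23, those of cartilage and bone were higher in 2 of 25 and lower in 4 (1 lower without organoid replicate 1), and those of complement and coagulation were higher in 1 of 29 and lower in 4 (2 lower without progenitor replicate 2 or organoid replicates 1 or 3). Oxidative stress and metallothionein genes were higher in 4 of 23 (1 without progenitor replicate 2). With the 6 arrays alone, 1 neural gene and 2 of liver, yolk sac and gut were higher, and none of cartilage and bone, complement or oxidative stress was called. A single muscle gene of 33 was higher, and none of 26 ciliated cell genes was called.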
